A study of Drosophila melanogaster with 53 samples.

Results

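Muscle of adult Drosophila melanogaster females that lack foxo was compared with muscle of wild-type (WT) females, gene by gene. The comparison was chosen by genotype: the 3 foxo mutant libraries against the 3 WT libraries of the same deposited table, over every gene with a mean of at least 10 normalised reads in that table. It covers 6 of the 53 samples of the series and 8357 of the 10258 genes listed in the table. WT was line 5905 (w1118), and the foxo mutant was homozygous foxoc431/c431. All these flies were females at day 3 after eclosion, kept in conventional culture at 25 °C and 60% humidity. Each library held polyadenylated RNA of muscle. The foxo effect was also read in flies of other genotypes, all with the same foxoc431 allele and 3 libraries per group: miR-252 mutants (mir-252c328/c328) against miR-252 foxo double mutants, and daw 3' UTR mutants (daw-3'UTRc82/c82) against daw 3' UTR foxo double mutants. Axenic foxo and axenic WT females, raised on antibiotic media, were read from the authors' deposited table alone. Other groups of day 3 flies entered the fits only through the estimate of spread. These were daw-/+ miR-252 foxo flies in the first table, and Atg8a mutants and a separate WT set in the daw 3' UTR table. The labels give no rescue and no other foxo allele for these groups, so foxoc431 and whatever else differs between that line and 5905 cannot be told apart.

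FoxO is the transcription factor at the end of the insulin signalling pathway. When insulin-like peptides bind their receptor, the kinase Akt phosphorylates FoxO and keeps it out of the nucleus. When insulin signalling is low, FoxO enters the nucleus and switches on genes for growth arrest, nutrient release, protein quality control and stress defence. In fly muscle FoxO is known for slowing the loss of muscle function with age, and daw, which encodes an activin-like ligand of the TGF-beta family, has been described as a gene that it represses.

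The 6 libraries held 3294056 to 3784064 reads on listed genes. Log2 values correlated at a Pearson r of 0.97 to 0.98 over genes within each genotype and of 0.94 to 0.96 between foxo and WT libraries, and genes are not independent replicates. A gene is named as changed here when limma, a linear model on log2 of the normalised read count plus 1, gave a Benjamini-Hochberg adjusted p under 0.05. By that rule 988 of 8357 genes changed, which is 11.8% of the genes tested. Of these, 463 genes (5.54%) were higher and 525 genes (6.28%) were lower in the foxo mutant. Unadjusted p was under 0.05 for 2161 genes. Most changes were small: the median fold of the changed genes was 1.63, 339 of them changed by less than 1.5-fold, 282 (3.37% of all tested) by at least 2-fold and 58 by at least 4-fold. Among the changes of at least 2-fold, 168 were rises and 114 were falls, whereas 220 of the 339 smallest changes were falls. The ranges of the 3 foxo and the 3 WT libraries did not overlap in 975 of the changed genes, and in 2776 (33.2%) of all tested genes. The median log2 change of all tested genes was 0.01. Leaving out WT column 3 lowered the count to 608 genes, and 439 genes were called in each of the 6 fits that left out 1 library. The p-values measure the spread between libraries within groups, pooled over the 15 libraries of the fit and not the 6 alone. The labels do not say whether libraries of a genotype came from separate animals, so that spread may be technical.

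**Figure D1:**
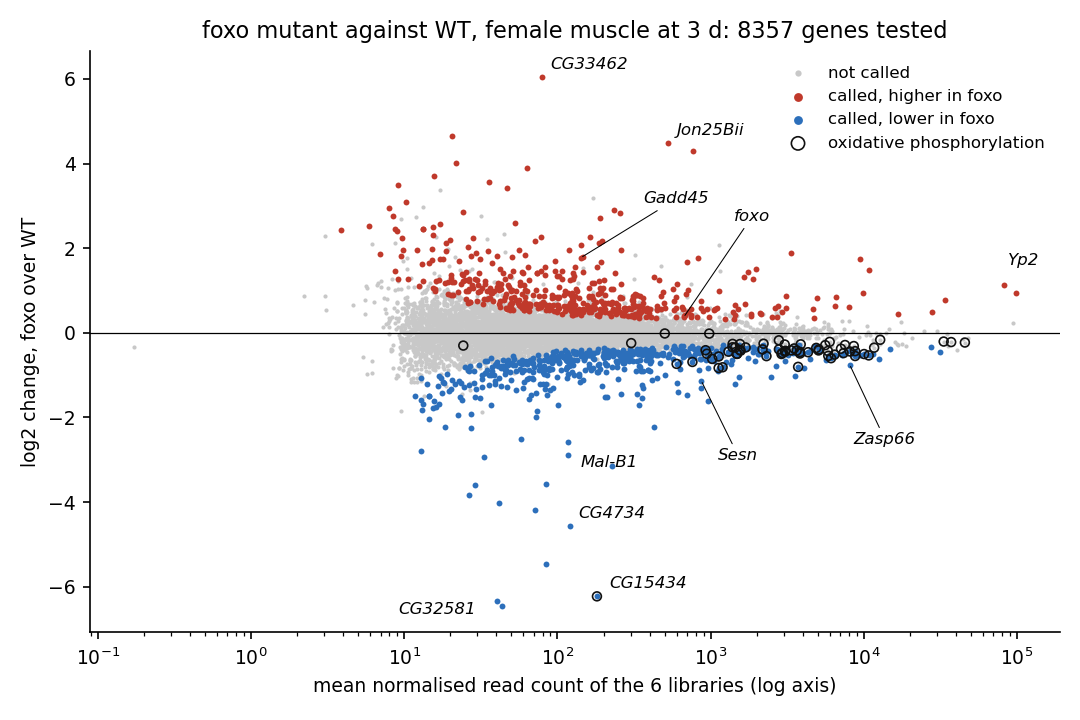
Log2 change of each of the 8357 tested genes (vertical axis, foxo over WT) against its mean normalised read count in the 6 libraries (horizontal log axis). Red and blue points are the 463 higher and 525 lower genes, grey points the others, and open circles mark the 64 oxidative phosphorylation genes, which all lie below 0.

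Reads on the foxo gene itself were not lower in the mutant. The gene lies on chromosome arm 3R from 14056945 to 14087978 on the plus strand of the BDGP6 annotation. The WT libraries held 596, 534 and 617 normalised reads of foxo and the foxo libraries 717, 715 and 828. The ranges did not overlap, and the mutant level was higher, with a log2 change of 0.37 (SE 0.12, adjusted p = 0.0455). That call was lost in each of the 6 fits that left out 1 library, where the log2 change ran from 0.30 to 0.41. In the authors' deposited tables the log2 fold change of foxo was 0.36 (adjusted p = 0.0108) in conventional and 0.60 (adjusted p = 0.00629) in axenic flies. For genes of few or scattered reads, the authors' values can lie far closer to 0 than limma's on the same libraries. MtnD, for example, had 1.31 against 2.51, and CG33462 0.32 against 6.04. Sizes of change from limma and from those tables are thus not directly comparable, here and below. Within the miR-252 mutant, foxo loss gave a log2 change of 0.11 (adjusted p = 0.563), and within the daw 3' UTR mutant of 0.45 (adjusted p = 0.0271). A read count over the whole gene therefore does not check the genotype label, and the foxo libraries are named here by their label.

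Among 35 tested genes of insulin and FoxO signalling, 4 rose and 5 fell. That is 11.4% and 14.3%, against 5.54% higher and 6.28% lower of all tested genes, the background for each list below. The median log2 change was -0.04 beside 0.01 for all tested genes. The fall with the smallest adjusted p was in Sesn, which encodes Sestrin, a stress-induced brake on the growth kinase complex TORC1 and a known FoxO target in flies. Sesn had 1244, 1226 and 1109.8 normalised reads in WT and 558, 564 and 509 in foxo muscle. Every mutant library lay far below every WT library, and the log2 change was -1.13 (SE 0.10, adjusted p = 5.00e-07). Other brakes on growth signalling were lower as well. chrb and scyl, the fly REDD1 genes that restrain TORC1, had log2 changes of -0.63 (adjusted p = 0.00355) and -0.41 (adjusted p = 0.0202). The call on scyl was lost in 2 of the 6 fits that left out 1 library, those without WT column 3 and without foxo replicate 1.

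An insulin-like peptide gene fell and the gene of a protein that binds such peptides rose. Ilp6, an insulin-like peptide made mainly in the fat body, had 122, 99.8 and 119.5 normalised reads in WT and 48.7, 62.9 and 74.4 in foxo muscle. Its ranges did not overlap and it fell, with a log2 change of -0.88 (SE 0.19, adjusted p = 0.00459). ImpL2, a secreted protein that binds insulin-like peptides and blocks their action, rose from 428, 455 and 535 to 981, 963 and 889 normalised reads. Every mutant library lay above every WT library, with a log2 change of 1.00 (SE 0.14, adjusted p = 1.00e-04). Sdr, another secreted binding protein gene, was not called (log2 change -0.27, adjusted p = 0.440). The Myc gene, listed as dm, rose with a log2 change of 0.71 (adjusted p = 0.00522), as did srl, the fly PGC-1 gene, with 0.66 (adjusted p = 0.0278). The srl call was kept in only 2 of the 6 fits that left out 1 library. tobi, an alpha-glucosidase gene that responds to insulin-like peptides, had 1416, 543 and 691 normalised reads in WT and 441, 154 and 423 in the mutant, so the ranges were apart although the WT libraries spread widely (log2 change -1.40, adjusted p = 0.00802). The log2 change of tobi was -0.997 (adjusted p = 0.0583) without WT column 1 and -0.90 without foxo replicate 2. In the authors' deposited tables tobi was not called in conventional flies (log2 fold change -0.65, adjusted p = 0.163) and was higher in axenic ones (0.72, adjusted p = 0.00246). Foxo loss raised tobi within the daw 3' UTR mutant (1.33, adjusted p = 0.0352).

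Not every gene described as a FoxO target was lower. Of 14 tested genes on a list of such targets from the fly literature, 4 fell (Sesn, l(2)efl, Ilp6 and Atg8a), 2 rose (dm and srl) and 8 were not called. l(2)efl encodes a small heat shock protein, and its WT libraries held 537, 448 and 391.8 normalised reads beside 284, 241 and 212 in the mutant. These ranges were well apart, with a log2 change of -0.90 (SE 0.13, adjusted p = 1.68e-04). Thor, the fly 4E-BP gene that restrains translation and a standard reporter of FoxO activity, had 1428, 1277 and 1506 normalised reads in WT and 1594, 1426 and 1085 in foxo muscle. The ranges of Thor overlapped and no change was detected (log2 change -0.05, SE 0.21, adjusted p = 0.917). The insulin receptor gene InR gave a log2 change of -0.05 (SE 0.17, adjusted p = 0.901), the lipase gene bmm of 0.03 (SE 0.12, adjusted p = 0.900) and chico, the insulin receptor substrate, of -0.29 (SE 0.15, adjusted p = 0.225). Akt1, Tor and S6k were not called either, with log2 changes of -0.24, 0.17 and 0.36 in that order. S6k lay near the threshold (adjusted p = 0.0534).

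**Figure D2:**
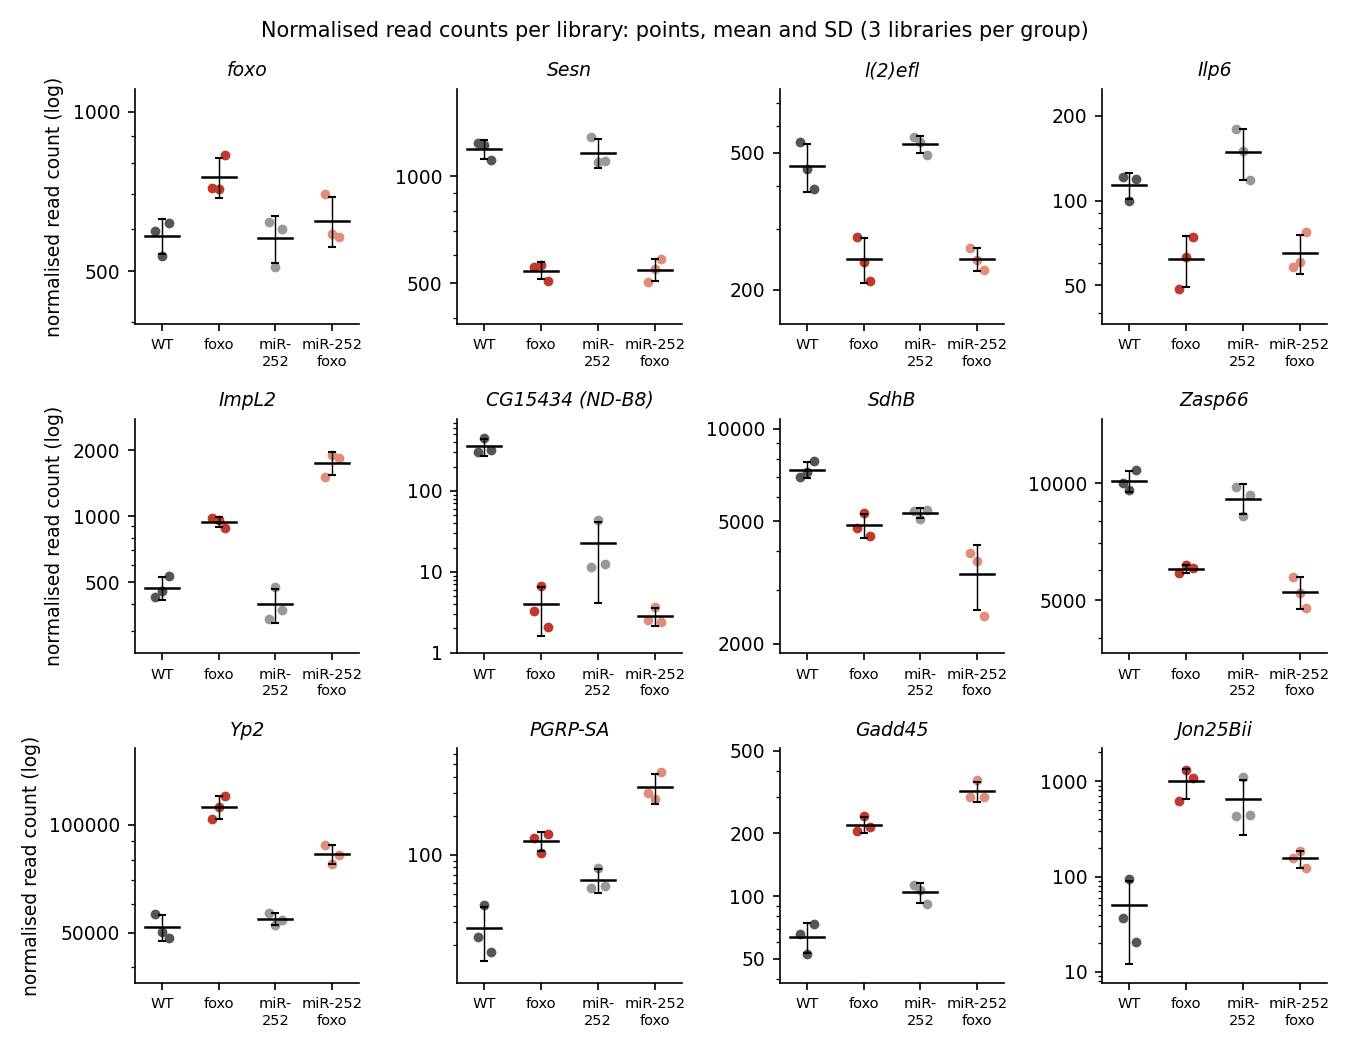
Normalised read count (vertical log axis) of 12 genes in each library of WT, foxo, miR-252 and miR-252 foxo muscle. Points are libraries, long bars are means and error bars are SD over 3 libraries; Sesn, l(2)efl, Ilp6 and Zasp66 are lower and ImpL2, Yp2, PGRP-SA and Gadd45 higher with foxo loss in both pairs of groups.

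The activin and BMP genes, which the study links to FoxO through daw, mostly kept within the spread of the libraries. daw had 317, 403 and 459 normalised reads in WT and 426, 515 and 492 in foxo muscle. The ranges overlapped, and the log2 change of 0.29 (SE 0.14) did not pass the test (adjusted p = 0.209). Within the miR-252 mutant, foxo loss raised daw by 0.49 on the log2 scale (adjusted p = 0.0210), and the difference between the foxo effects in these backgrounds was not called (adjusted p = 0.775). Within the daw 3' UTR mutant the log2 change of daw was 0.15 (adjusted p = 0.601). Of 20 tested genes of the pathway none rose and 2 fell by limma, the latter 10% against 6.28% of all tested genes, and the median log2 change was -0.02. edgeR and DESeq2 also called 0 higher and 2 lower, and at an unadjusted p under 0.05 there were 2 higher and 3 lower genes. The genes that fell were put and tok. put encodes Punt, a type II receptor shared by activin and BMP ligands, and had 248, 234 and 244 normalised reads in WT and 157, 146 and 178 in the mutant. tok, a tolloid-like protease gene, had 342, 291 and 394 and 230.1, 207 and 214. Both sets of ranges were apart, with log2 changes of -0.60 (SE 0.12, adjusted p = 0.00192) and -0.65 (SE 0.13, adjusted p = 0.00253). The type I activin receptor gene babo stayed level at 222, 235 and 239 against 201, 249.6 and 245 normalised reads (log2 change -0.01, SE 0.15). The ligand genes Actbeta and myo had log2 changes of -0.43 and -0.15 and were not called (adjusted p = 0.209 and 0.562).

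Oxidative phosphorylation genes moved together. They encode the mitochondrial complexes that burn fuel with oxygen and make ATP, and flight and leg muscle are rich in them. Of 70 nuclear genes listed, 64 were in the table and all of these were tested. Every one of the 64 had a log2 change below 0, and 35 of them fell by limma, beside 6.28% of all tested genes. None rose, by limma, edgeR or DESeq2 or at an unadjusted p under 0.05, where 52 of the 64 were lower. The median log2 change was -0.42, and the ranges of the 2 genotypes did not overlap in 58 genes (90.6%, against 33.2% of all tested genes). Reads on these 64 genes made up 10.6%, 10.2% and 11.1% of the WT libraries and 8.36%, 8.25% and 8.48% of the foxo libraries. The share of every mutant library was thus below that of every WT library, at 8.36% ± 0.11 (SD, n = 3) against 10.7% ± 0.41 (SD, n = 3). In bulk muscle, less RNA per cell and fewer cells of a kind rich in it cannot be told apart. The count of called genes depended on the libraries: it was 20 without WT column 1, 15 without WT column 3, and 21, 20 and 22 without foxo replicates 1, 2 and 3, while the median log2 change stayed between -0.45 and -0.38. With only WT and foxo in the fit it was 54, and 56 of the 64 genes were called lower in the authors' deposited table of the same libraries, where 5.82% of all genes were.

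Genes of every respiratory complex fell. Of complex I, which takes electrons from NADH, 14 of 31 genes fell, and of complex II, the succinate dehydrogenase, all 4. Of complex III 4 of 7 genes fell, of complex IV, the cytochrome c oxidase, 7 of 9, and of complex V, the ATP synthase, 5 of 12. The carrier gene Cyt-c-p fell too. Without WT column 3 the counts were 9 for complex I, 1 for complex II, 1 for complex III, 2 for complex IV and 1 for complex V, and complex III also had 1 without WT column 1 or foxo replicate 2. The median log2 change of each complex lay between -0.51 and -0.35 in every fit that left out 1 library. SdhB, the iron-sulphur subunit of complex II, had 6989, 7258 and 7852 normalised reads in WT and 4779.7, 5340.3 and 4473 in foxo muscle, with a log2 change of -0.60 (SE 0.14, adjusted p = 0.00813). The coupling factor 6 gene of the ATP synthase, listed as ATPsyn-Cf6, had 4683, 4642 and 4897 and 2733, 2677 and 2724. Its libraries were tightly grouped in both genotypes, with a log2 change of -0.81 (SE 0.13, adjusted p = 3.79e-04). The complex I genes l(2)35Di (now ND-B17), CG12859 (ND-B15) and CG8680 (ND-13A) fell by 0.82, 0.69 and 0.73 on the log2 scale, and the complex III gene ox by 0.83. These 6 genes were each called in all 6 fits that left out 1 library.

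One complex I gene stood far from the rest. CG15434, now named ND-B8, had 300.2, 456 and 318 normalised reads in WT and 3.32, 6.77 and 2.09 in the foxo mutant. The mutant libraries were nearly empty of it, with a log2 change of -6.23 (SE 0.40, adjusted p = 7.17e-09). Its level was also low in the miR-252 mutant, which does not carry foxoc431, at 11.5, 44.2 and 12.6 normalised reads, and it was 2.52, 3.68 and 2.41 in the miR-252 foxo double mutant. In the daw 3' UTR table its mean was 337 without and 101 with foxo loss.

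**Figure D3:**
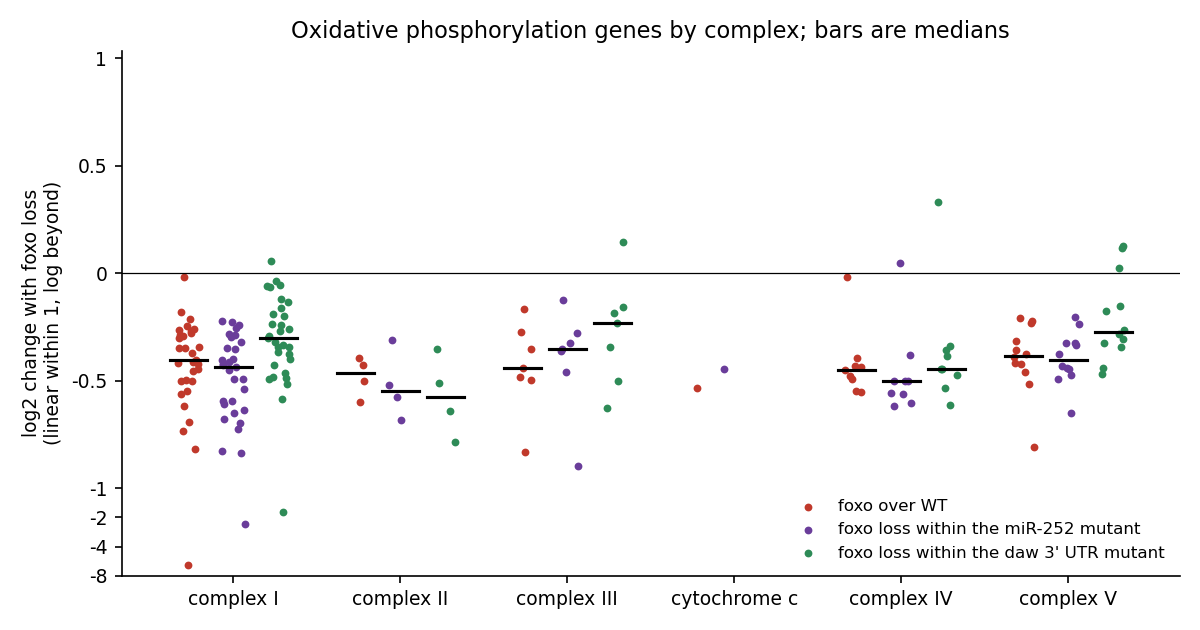
Log2 change with foxo loss (vertical axis, linear within 1 and logarithmic beyond) for each oxidative phosphorylation gene, by respiratory complex. Colours give foxo over WT and foxo loss within the miR-252 and the daw 3' UTR mutants, bars are medians, and nearly all points lie below 0 in the 3 comparisons, which share no library.

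The oxidative phosphorylation genes were lower with foxo loss in the other backgrounds too. Within the miR-252 mutant 43 of 64 fell and none rose (median log2 change -0.44), where 9.49% of all genes fell. Within the daw 3' UTR mutant 39 of 63 fell and 1 rose (median -0.34), where 16.2% of all genes fell. In the authors' deposited table of axenic flies 16 of 64 were called lower and none higher, with a median of -0.36, where 3.24% of all genes were lower. Those axenic libraries had no replicate values here, and no fit was made to them. The summed level of the 64 genes was also low in the miR-252 mutant, which does not carry foxoc431. It was 286300, 243500 and 294700 normalised reads there, beside 395500, 368000 and 416100 in WT and 304700, 302100 and 317500 in foxo muscle. Each miR-252 library thus lay below each foxo library. The part of line background in these levels was not tested.

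Enzymes that feed the respiratory chain fell with it. Of 15 tested genes of the TCA cycle 8 fell and 1 rose, which is 53.3% and 6.67% against 6.28% and 5.54% of all tested genes. The median log2 change was -0.35, and the ranges of the genotypes were apart in all 15, against 33.2% of all tested genes. The summed level of the 15 was 138900, 129300 and 150500 normalised reads in WT and 113500, 116100 and 119300 in foxo muscle. In the miR-252 mutant, which does not carry foxoc431, it was 118400, 96500 and 122900. Mdh2, the mitochondrial malate dehydrogenase, had 9710.5, 9802 and 11995 normalised reads in WT and 7208, 7006 and 7584 in foxo muscle (log2 change -0.53, SE 0.13, adjusted p = 0.0105). CG11876 (now Pdhb), a subunit of pyruvate dehydrogenase, fell by 0.48 on the log2 scale, and Idh and CG5028, both isocitrate dehydrogenase genes, by 0.35 and 0.41. kdn, the citrate synthase gene, went the other way, from 14706, 13144 and 14911 to 18285, 18373 and 21244 normalised reads (log2 change 0.44, adjusted p = 0.0453). It was chosen after its values were seen, and its call was lost in each of the 6 fits that left out 1 library. Those fits called 4, 6 and 2 TCA cycle genes lower without WT columns 1, 2 and 3, and 3, 4 and 5 without foxo replicates 1, 2 and 3.

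Other housekeeping machinery moved less. Of 72 mitochondrial ribosomal protein genes 6 fell and none rose (median log2 change -0.16). The 6 are 8.33%, near the 6.28% of all tested genes that fell, and include mRpL42 (-0.98, adjusted p = 0.00223) and mRpL40 (-0.90, adjusted p = 0.00669). At an unadjusted p under 0.05, 1 of the 72 was higher and 18 were lower. None of 84 cytosolic ribosomal protein genes was called by limma, edgeR or DESeq2, with a median log2 change of 0.03 and 1 higher and 0 lower at an unadjusted p under 0.05. None of 31 proteasome genes was called by the same 3 tools, with a median of -0.03 and 0 higher and 1 lower at that p. Within the miR-252 and daw 3' UTR mutants, by contrast, limma called 18 and 14 of the 31 proteasome genes higher with foxo loss. That contrast between backgrounds is a count in each and was not tested as a difference over the list. Of 36 genes of translation initiation and ribosome biogenesis 2 rose, Nop56 (log2 change 0.56) and Fib (0.56), both nucleolar proteins and both named after their values were seen.

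Of 16 glycolysis genes 13 had a log2 change below 0, with a median of -0.24, while 2 rose and 2 fell by limma (12.5% each, against 5.54% higher and 6.28% lower of all tested genes). Their share of reads was 4.82% ± 0.23 in WT and 4.10% ± 0.03 in foxo muscle (SD, n = 3 each). The number called lower depended on the fit: it was 8 with only WT and foxo in the fit, at an unadjusted p under 0.05 and in the authors' deposited table, each with 2 higher. It was 4 by DESeq2, 3 by edgeR, and 0 without WT column 1 or 3 or any 1 foxo replicate. Gapdh1, the glyceraldehyde-3-phosphate dehydrogenase gene, had 36651, 34537 and 39106 normalised reads in WT and 26518, 26477 and 26796 in foxo muscle (log2 change -0.47, adjusted p = 0.0302). Pfk, the phosphofructokinase gene, fell by 0.42, while Hex-C, a hexokinase gene, and Pgm, the phosphoglucomutase gene, rose by 0.48 and 0.37 on the log2 scale. The calls on Gapdh1 and Pfk were each kept in 1 of the 6 fits that left out 1 library, and that on Pgm in none.

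Genes for the use of sugars and gluconeogenesis held steeper falls. Of 28 tested genes 6 fell and 2 rose (21.4% and 7.14%, against 6.28% and 5.54% of all tested genes), with a median log2 change of -0.11. The maltase gene Mal-B1 had 335, 121 and 171 normalised reads in WT and 34.3, 24.2 and 18.9 in the mutant. The highest mutant library was far below the lowest WT library, with a log2 change of -2.88 (SE 0.44, adjusted p = 2.04e-04). Mal-A6 and Mal-A8, other maltase genes, fell by 1.46 and 2.52 on the log2 scale. The log2 change of Mal-A8 was -1.37 without foxo replicate 2 and -2.05 without WT column 1, both without a call, and DESeq2 did not call it (adjusted p = 0.0529). It was -0.43 (adjusted p = 0.342) in the authors' deposited table. CG10924 (now Pepck2), a phosphoenolpyruvate carboxykinase gene, went from 620.4, 427 and 558 to 163, 170.3 and 209 normalised reads (log2 change -1.55, SE 0.21, adjusted p = 7.44e-05). Those that rose were Sodh-2, a sorbitol dehydrogenase gene (1.42, adjusted p = 8.59e-05), and Tret1-1, a trehalose transporter gene (0.50, adjusted p = 0.00813).

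Among 38 lipid genes 6 fell and 2 rose, which is 15.8% and 5.26% against 6.28% and 5.54% of all tested genes, and the median log2 change was close to 0, at -0.00065. The genes that fell include enzymes of fatty acid oxidation: yip2, a thiolase, had 453, 483 and 471 normalised reads in WT and 264, 221 and 266 in foxo muscle (log2 change -0.91, SE 0.12, adjusted p = 3.39e-05). Mtpalpha, of the mitochondrial trifunctional protein, fell by 0.48. HLH106, the fly SREBP gene that drives lipid synthesis, fell by 0.51 and Lpin, the Lipin gene, by 0.62. The lipophorin receptor gene LpR2 rose by 0.61 and Mtp, the microsomal triglyceride transfer protein gene, by 0.46 on the log2 scale. Both Faa and hgo, which encode enzymes of tyrosine breakdown, were among the genes with the largest falls. Faa, the fumarylacetoacetase gene, had 147, 101 and 102 normalised reads in WT and 29.9, 28.1 and 35.6 in the mutant (log2 change -1.85, SE 0.23, adjusted p = 2.52e-05). hgo, the homogentisate dioxygenase gene, had 119, 121 and 116 and 53.1, 45.5 and 42.9 (log2 change -1.32, SE 0.20, adjusted p = 1.84e-04). In both genes the lowest WT library held more reads than the highest mutant library.

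The contractile apparatus changed in a few genes of 43 tested: 6 rose and 2 fell, with a median log2 change of -0.02. That is 13.95% and 4.65%, against 5.54% and 6.28% of all tested genes. The Z-disc protein gene Zasp66 had 10034, 9579 and 10820.5 normalised reads in WT and 5868, 6163 and 6037 in foxo muscle. Its libraries hardly varied within a genotype, and the log2 change was -0.75 (SE 0.10, adjusted p = 4.32e-05). 3 actin genes rose. Act88F, the actin of the indirect flight muscle, had 2451, 3977 and 4597 normalised reads in WT and 5909, 6347 and 6591 in the mutant (log2 change 0.82, SE 0.17, adjusted p = 0.00282). Act79B, a muscle actin gene, had 6442, 6293 and 6212 and 9265, 9346 and 10162 (log2 change 0.60, SE 0.10, adjusted p = 6.00e-04), and Act87E rose by 0.49. In each actin gene the ranges were apart, although WT libraries of Act88F spread widely. TpnC41C, a troponin C gene, rose by 0.53 and Tm1, a tropomyosin gene, by 0.34, the latter kept in 1 of the 6 fits that left out 1 library.

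Markers that define muscle checked the labelled tissue. All 18 were tested and none was at 0: Act88F rose, Mlp84B (log2 change -0.29, named after its values were seen) fell, and 16 were not called. Their median log2 change was -0.03, and their summed share of reads was 4.67% ± 0.27 in WT and 4.38% ± 0.07 in foxo muscle (SD, n = 3 each).

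Antimicrobial peptide genes leaned higher in the mutant, but the libraries scattered. Of 32 tested antimicrobial peptide genes 27 had a log2 change above 0 and the median was 1.16, yet 4 rose and 2 fell by the test (12.5% and 6.25%, against 5.54% and 6.28% of all tested genes), and the ranges were apart in only 8, beside 33.2% of all genes. Leaving out WT column 3 moved the median to 0.69, and leaving out foxo replicate 2 moved it to 1.61. In the authors' deposited table, 7 of these genes were called higher and 2 lower with a median log2 fold change of 0.27, where 4.82% of all genes were higher. Within the miR-252 mutant foxo loss raised 13 of the 32 and lowered none, where 9.45% of all genes rose. Within the daw 3' UTR mutant it raised 24 and lowered none, where 14.4% of all genes rose. Drs, which encodes the antifungal peptide drosomycin, had 418, 689 and 194 normalised reads in WT and 3172, 1118 and 1208 in foxo muscle. All mutant libraries were above all WT libraries, but the log2 change of 2.08 (SE 0.68) did not pass the test (adjusted p = 0.0528), and edgeR did call it (adjusted p = 0.0367). Drsl2, a drosomycin-like gene, had 26.4, 7.98 and 8.31 and 160.4, 68.7 and 45.0 (log2 change 2.61, SE 0.40, adjusted p = 2.24e-04). Drsl4, Drsl5 and CecB, a cecropin gene, rose as well. The genes that fell were CG5791 and CG5778, now named BomBc3 and BomT3, which encode bomanins, peptides made in the Toll response. CG5791 had 597, 562 and 362 normalised reads in WT and 292, 107 and 112 in the mutant (log2 change -1.70, SE 0.35, adjusted p = 0.00338). Reads of close copies such as the cecropin and attacin genes may be split between them.

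Of 38 tested genes of Imd and Toll signalling, the fly's routes of response to bacteria and fungi, 6 rose and 1 fell, with a median log2 change of 0.16. That is 15.8% and 2.63%, against 5.54% and 6.28% of all tested genes. PGRP-SA, a peptidoglycan receptor upstream of Toll, had 23.3, 40.9 and 17.7 normalised reads in WT and 135, 104 and 146 in foxo muscle. Every mutant library was above every WT library, with a log2 change of 2.26 (SE 0.35, adjusted p = 2.07e-04). PGRP-SC2, an amidase gene that breaks down peptidoglycan and so limits the response, had 78.2, 136 and 30.1 and 324, 317 and 291 (log2 change 2.16, SE 0.39, adjusted p = 0.00114). PGRP-LB, another such amidase, rose by 1.43 on the log2 scale, nec, a serpin gene of the Toll pathway, by 0.58 and Traf6 by 0.65. Iap2 (now Diap2), which acts in Imd signalling, fell by 0.49.

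Stress response genes did not move as a block. Of 19 genes of the JNK and JAK-STAT responses 4 rose and 1 fell, 21.1% and 5.26% against 5.54% and 6.28% of all tested genes (median log2 change 0.10). Gadd45, a damage response gene, had 65.5, 52.9 and 73.8 normalised reads in WT and 205, 242 and 215 in foxo muscle, so the mutant ran above 200 in every library and WT below 80 (log2 change 1.78, SE 0.25, adjusted p = 1.07e-04). The JAK-STAT genes Socs36E, a feedback inhibitor, dome, the receptor, and et, an inhibitory receptor, rose by 1.24, 0.65 and 0.60 on the log2 scale. TotM, a Turandot humoral stress gene, fell from 43.3, 32.9 and 30.1 to 5.53, 16.4 and 6.28 normalised reads (log2 change -1.94, SE 0.38, adjusted p = 0.00217). Of 17 heat shock and chaperone genes limma called 0 higher and 1 lower, l(2)efl, as did edgeR and DESeq2. Of 19 genes of oxidative stress and metal binding 2 rose and 1 fell: the metallothionein genes MtnD and MtnE rose by 2.51 and 2.25, and Cat, the catalase gene, fell by 0.39.

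Autophagy genes showed 1 change. Of 23 tested, Atg8a, whose protein coats the autophagosome, fell, and none rose by limma, edgeR or DESeq2. At an unadjusted p under 0.05 there were 0 higher and 5 lower. Atg8a had 3380.2, 2759 and 3117 normalised reads in WT and 2318, 2145 and 2649 in foxo muscle. The lowest WT library was little above the highest mutant library, and the log2 change of -0.38 (SE 0.11, adjusted p = 0.0348) was called in 2 of the 6 fits that left out 1 library. Of 32 lysosome and vacuolar ATPase genes 4 fell and none rose by limma: Vha13, Vha26 and Vha68-1, subunits of the proton pump, fell by 0.37, 0.28 and 0.35, and CG31414 (now Gba1b), a glucocerebrosidase gene, by 0.88. edgeR called 2 of the 32 lower and DESeq2 4, neither called any higher, and at an unadjusted p under 0.05 there were 3 higher and 7 lower.

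Detoxification enzymes held some of the widest changes. Of 55 tested cytochrome P450 genes 4 rose and 10 fell, which is 7.27% and 18.2% against 5.54% and 6.28% of all tested genes, with a median log2 change of -0.13. Cyp4p2 had 49.7, 42.9 and 57.2 normalised reads in WT and 1.11, 1.93 and 6.28 in foxo muscle (log2 change -3.83, SE 0.32, adjusted p = 2.08e-07). Cyp4s3 had 5.28, 3.99 and 6.23 and 39.8, 45.5 and 44.0 (log2 change 2.85, SE 0.29, adjusted p = 1.44e-06). Both genes are at or near a few reads in the lower genotype. Cyp6g1, known for DDT resistance, fell by 1.31 and Cyp6a17 by 1.29, and Cyp12e1 and Cyp6d5 by 1.16 and 0.83. Within the miR-252 mutant foxo loss raised 6 of the 55 P450 genes and lowered 8 (median log2 change 0.10). Within the daw 3' UTR mutant it raised 12 of 52 and lowered 8 (median 0.225). In the authors' deposited values for axenic flies, 6 of 54 were called higher and 8 lower (median -0.03). Of 26 glutathione S-transferase genes 2 rose and 6 fell, 7.69% and 23.1% against 5.54% and 6.28% of all tested genes (median -0.28). Among them GstE5 went from 27.5, 25.9 and 17.7 to 2.21, 5.80 and 8.38 normalised reads (log2 change -2.04, adjusted p = 0.00169). GstD10 rose by 2.40 from very few reads. Within the miR-252 mutant foxo loss raised 4 of these 26 genes and lowered 1 (median log2 change 0.22). Within the daw 3' UTR mutant it raised 7 of 24 and lowered none (median 0.20). In the authors' deposited values for axenic flies, 1 was called higher and 4 lower (median -0.11). Differences between these backgrounds were not tested over either list.

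The widest changes over all genes were in genes that were nearly silent in 1 genotype. CG32581 (now sordd2) had 89.8, 86.8 and 84.2 normalised reads in WT and none in the 3 foxo libraries, so it was at least 83.6-fold lower against a floor of 3 reads over the group. CG3397 had 92.0, 82.8 and 67.5 and none, at least 77.6-fold lower. CG33462 was the reverse, with none in the 3 WT libraries and 313, 4.84 and 155 in the foxo libraries, at least 153-fold higher and scattered. The authors' deposited table of the same libraries did not call CG33462 (log2 fold change 0.32, adjusted p = 0.3065). Their axenic table called it higher (1.52, adjusted p = 2.54e-04). The floors cover counting error only. CG11893 had 184, 161 and 153 normalised reads in WT and 3.32, 0.967 and 5.24 in foxo muscle (log2 change -5.47, SE 0.42), and CG4734 had 280.1, 219.5 and 194 and 15.5, 4.84 and 8.38 (log2 change -4.57, SE 0.30). Several of these genes were low in the miR-252 mutant as well, which does not carry foxoc431: CG32581 was at 0 in the 3 miR-252 libraries, CG3397 at a mean of 2.71 and CG11893 at a mean of 5.79 normalised reads. The mean of CG4734 there was 98.2. In the daw 3' UTR table CG32581 ran the other way, from a mean of 0.303 without to 32.1 with foxo loss. The part of line background in these levels was not tested.

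Other large falls were in Oseg2, an intraflagellar transport gene (-4.02), Ubi-p5E, a polyubiquitin gene, htl, an FGF receptor gene, Idgf5, Kua, Lectin-galC1 and Obp99c, an odorant-binding protein gene. Ubi-p5E had 1495, 1516 and 1308 normalised reads in WT and 470.2, 410.2 and 531 in foxo muscle (log2 change -1.62, SE 0.12, adjusted p = 3.08e-08). It too was low in the miR-252 mutant, at a mean of 451. Within the daw 3' UTR mutant it rose with foxo loss, from a mean of 287 to 1098 (log2 change 1.93, adjusted p = 1.12e-07). Obp99c had 1356, 1073 and 1259 and 539, 473 and 477 (log2 change -1.30, SE 0.12, adjusted p = 3.55e-07), whereas its mean in the miR-252 mutant, 1258, was like that of WT. Large rises were in Peritrophin-15a (3.57), a chitin-binding protein gene of the gut lining, Pebp1 (2.91), Lsp1beta, smp-30 (2.12), the peroxiredoxin gene Prx2540-2 (2.07), betaTub60D (1.96), Bace (1.89) and the zinc transporter gene Zip89B (1.83). The caspase gene Damm was called higher (1.94), but its log2 change was 0.87 without WT column 3, and it had no call without that library or without any 1 foxo replicate. Damm was not called by edgeR (adjusted p = 0.0695), DESeq2 (adjusted p = 0.181), the fit with only WT and foxo (adjusted p = 0.0605) or the authors' deposited table (log2 fold change 0.41, adjusted p = 0.450). smp-30 had 77.2, 54.9 and 76.9 normalised reads in WT and 364, 266 and 288 in foxo muscle, with no overlap. CG4269, CG7298, CG18179 and CG4927 rose by 3.89, 2.71, 2.27 and 2.17 on the log2 scale.

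Some markers of tissues that lie beside muscle rose in the foxo libraries. Of 13 fat body markers 4 rose and 2 fell (30.8% and 15.4%, against 5.54% and 6.28% of all tested genes), with a median log2 change of 0.29, and none was at 0. Reads on the fat body list made up 5.09%, 4.60% and 4.33% of the WT libraries and 8.20%, 8.34% and 8.96% of the foxo libraries, so the groups were far apart. The yolk protein genes Yp1, Yp2 and Yp3, made by the fat body of females, held nearly all of that difference: reads on the other listed genes made up 0.762% ± 0.091 in WT and 0.805% ± 0.077 in foxo muscle (SD, n = 3 each). Yp2 had 56529, 50089.6 and 48463 normalised reads in WT and 103799, 112589 and 120323 in foxo muscle (log2 change 1.12, SE 0.11, adjusted p = 1.31e-06), Yp3 rose by 0.94 and Yp1 by 0.77. Together with Lsp1beta, a larval serum protein gene (46.5, 104 and 37.4 against 511, 218 and 623; log2 change 2.84), they are the 4 that rose. Lpin and to, also on the list, fell. Within the miR-252 mutant foxo loss raised 5 of the 13 fat body markers and lowered 2 (median log2 change 0.26). Within the daw 3' UTR mutant it raised 3 and lowered 5 (median -0.26). In the authors' deposited values for axenic flies, 3 were called higher and 1 lower (median 0.31). A difference between these backgrounds was not tested over the list.

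Of 21 gut markers 9 rose and 2 fell (42.9% and 9.52%, against 5.54% and 6.28% of all tested genes), with a median log2 change of 0.62, and their share of reads went from 1.72 to 2.15% in the WT libraries to 2.38 to 2.79% in the foxo libraries. The digestive protease genes Jon25Bi and Jon25Bii, close copies whose reads may be split, rose most. Jon25Bii had 37.0, 93.8 and 20.8 normalised reads in WT and 618, 1305 and 1087 in foxo muscle (log2 change 4.48, SE 0.45, adjusted p = 1.42e-06), and Jon25Bi 95.1, 169.6 and 21.8 and 1086, 1662 and 1535 (log2 change 4.29). yip7, also a gut protease gene, went from 5032, 6613 and 5476 to 15384, 17475 and 14795 (log2 change 1.48, SE 0.13, adjusted p = 3.55e-07), and Jon65Aiv and epsilonTry rose by 0.94 and 0.88. The amylase gene Amy-d fell by 0.84. Within the miR-252 mutant foxo loss raised 8 of the 21 gut markers and lowered 7 (median log2 change -0.05). Within the daw 3' UTR mutant it raised 1 of 18 and lowered 2 (median -0.12). In the authors' deposited values for axenic flies, 7 of 21 were called higher and 1 lower (median 0.26). A difference between these backgrounds was not tested over the list.

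Blood cell markers also leaned up and nervous system markers down. Of 17 hemocyte markers 6 rose and 1 fell, 35.3% and 5.88% against 5.54% and 6.28% of all tested genes (median log2 change 0.42): the collagen IV genes Cg25C and vkg rose by 0.60 and 0.41, the prophenoloxidase genes PPO1 and PPO2 by 0.59 and 0.51 and the phagocytosis receptor gene eater by 0.85, while atilla, a lamellocyte marker, fell by 0.60. Their share of reads was 0.29 to 0.31% in WT and 0.37 to 0.43% in foxo libraries. Of 23 neuron markers limma called none higher and 3 lower (median -0.27), namely Nplp3, nSyb and nAChRalpha1, and at an unadjusted p under 0.05 there were 1 higher and 8 lower. Of 8 glia markers none rose and 3 fell, nrv2, repo and wrapper (median -0.24). By edgeR and by DESeq2, 2 of the 8 were lower. The neuron share of reads overlapped, at 0.38 to 0.40% in WT and 0.34 to 0.40% in foxo libraries. The glia share was 0.21 to 0.22% in WT and 0.18 to 0.19% in foxo libraries. Of 18 cuticle and trachea markers 3 rose and 2 fell, of 11 Malpighian tubule markers 2 rose and 1 fell, of 6 ovary markers aret fell, and of 4 markers of testis, accessory gland and sex dsx rose, both named after their values were seen. None of 6 eye markers and 2 spermatheca markers was called by limma, edgeR or DESeq2, and 1 eye marker was higher at an unadjusted p under 0.05. These lists move with the immune, metabolic and protease genes above, some of which the fat body, gut and blood cells also express, and their part in those results was not tested. Among 13 clock genes tim and cwo rose by 0.38 and 0.51 and to fell by 0.40. Of 12 microRNA pathway genes loqs, which encodes a partner of Dicer-1, fell by 0.73, and it was named after its values were seen.

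**Figure D4:**
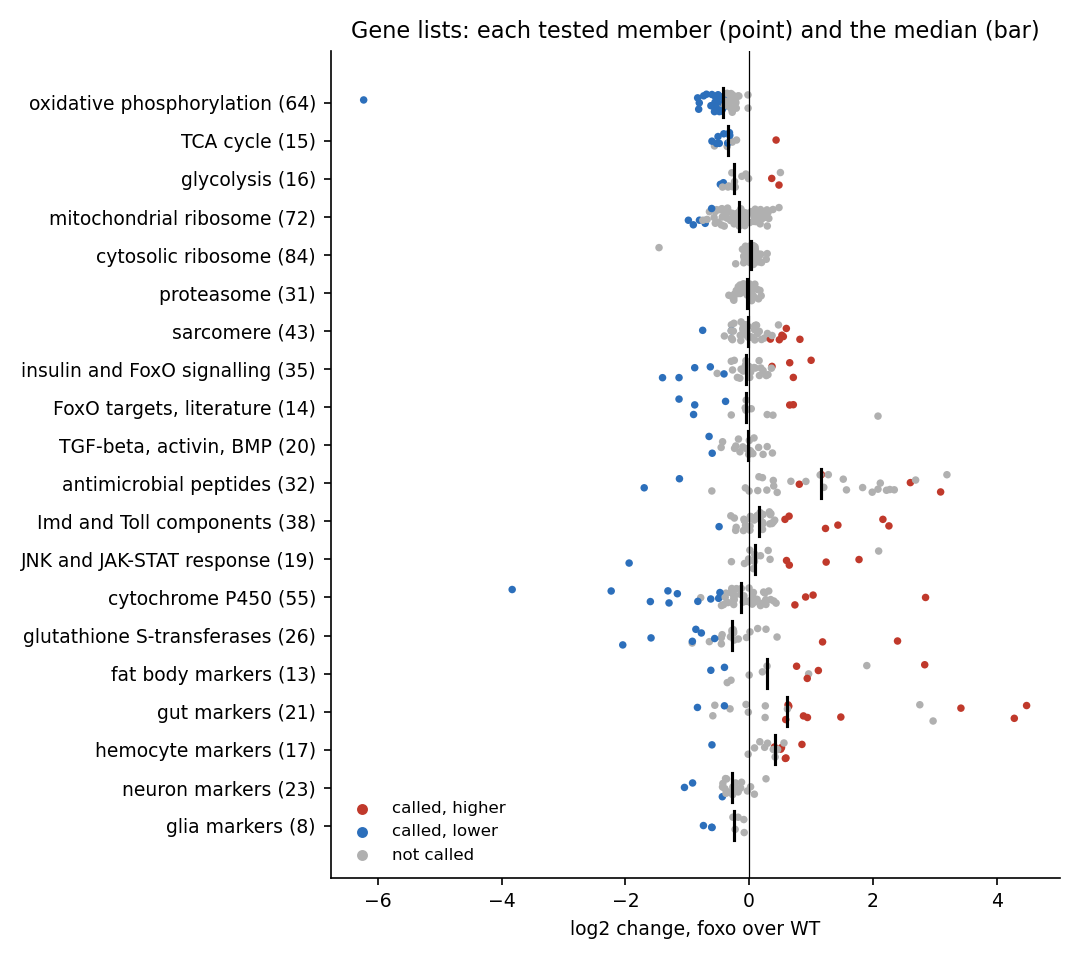
Log2 change of each tested member (points, horizontal axis, foxo over WT) of 20 gene lists, with the number tested in brackets and a bar at the median. Red and blue points were called higher and lower; oxidative phosphorylation and TCA cycle genes lie mostly left of 0, while antimicrobial peptide, gut and hemocyte markers lie mostly right of it.

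Several of these counts rest on single libraries. Antimicrobial peptide rises went from 4 to 8 without WT column 2 and to 7 without foxo replicate 2. Rises fell from 6 to 3 in Imd and Toll genes without WT column 2 or 3 or foxo replicate 1, and in hemocyte markers without foxo replicate 3. They went from 4 to 2 in insulin and FoxO genes without WT column 1 or 2 or foxo replicate 1 or 3, and in JNK and JAK-STAT genes without WT column 3 or foxo replicate 1 or 2. Falls went from 6 to 3 in lipid genes without WT column 3, in sugar genes and in glutathione S-transferases without WT column 1, and in mitochondrial ribosomal genes without any 1 WT column, and in the last to 2 without foxo replicate 3. Lysosome falls went from 4 to 1 or 2 without any 1 library. Neuron marker falls went from 3 to 1 without WT column 3 or foxo replicate 3. Glia marker falls went from 3 to 1 without WT column 1 or 3 or foxo replicate 1 or 3. Among the genes named here, foxo and 5 others lost their call in each of the 6 fits (kdn, Pgm, tim, Vha26 and wrapper), 11 in 5 fits (CG3321, CG5028, Gapdh1, Mlp84B, Pfk, Tm1, Vha13, Vha68-1, et, nec and to), and 11 in 4 fits (Atg8a, Damm, Fib, Idh, Mtp, Traf6, cwo, dome, nAChRalpha1, repo and srl).

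The same allele was also read in other genotypes, whose libraries do not enter the log2 changes of foxo against WT. The miR-252 groups, and the daw-/+ miR-252 foxo group, were in the same limma fit, however, and shared its estimate of spread. Calls in the WT and miR-252 backgrounds are therefore not independent. With only WT and foxo in the fit, 1308 genes were called. Foxo loss within the miR-252 mutant changed 1583 genes (18.9%), or 959 without miR-252 replicate 3 and 961 without miR-252 foxo replicate 3. Of the 988 genes changed in foxo against WT, 862 (87.2%) had the same direction there, 506 were also called in that direction and 15 were called in the opposite one. Those 506 are 51.2% of the foxo calls and 32.0% of the calls within the miR-252 mutant. Foxo loss within the daw 3' UTR mutant changed 2532 of 8271 genes (30.6%), and of 955 foxo calls with a value in that table, 840 (88.0%) had the same direction, 595 were called alike and 24 in the opposite direction.

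In the authors' deposited tables, 1011 genes (10.6%; 458 higher and 553 lower) were called in conventional and 586 genes (6.25%) in axenic flies, for foxo against WT. The conventional table and limma shared 786 calls of the same direction, 79.5% of the limma calls and 77.7% of the table's. Of 1001 genes called in the conventional table with a value in the axenic one, 937 (93.6%) had the same direction, 347 were called alike and 2 in the opposite direction. Those 347 are 34.7% of the conventional and 60.1% of the axenic calls. Antimicrobial peptide genes had a median log2 fold change of 0.05 in the axenic table, with 2 of 32 called higher and 2 lower, where 3.01% of all genes were higher. The like median in the authors' conventional table was 0.27, with 7 called higher and 2 lower. A difference between the cultures was not tested.

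A core of genes was called in the same direction in foxo against WT and in both double mutant comparisons: 160 of 437 higher and 221 of 518 lower genes with a value in both tables. Of these, 66 and 105 were also called alike in the authors' axenic table. Of all genes, 9.45% rose and 9.49% fell within the miR-252 mutant, 14.4% and 16.2% within the daw 3' UTR mutant, and 3.01% and 3.24% in the axenic table. The WT and miR-252 calls share an estimate of spread, and the overlap was not tested. Sesn fell in all of them, with log2 changes of -1.13, -1.09 and -1.09 in WT, miR-252 and daw 3' UTR flies and -0.82 in the axenic table. Ilp6 gave -0.88, -1.17, -2.47 and -1.26 in that order, and l(2)efl -0.90, -1.11, -0.65 and -1.24. Among the genes that rose, ImpL2 gave 1.00, 2.15, 1.34 and 1.42, and Gadd45 1.78, 1.60, 1.98 and 1.40. Zasp66 fell in all 4, at -0.75, -0.80, -0.97 and -0.61. The core also holds Obp99c, Gapdh1 and mRpL42 among the lower genes and MtnD, Zip89B, Yp2, dome, PPO1, PPO2, vkg, Cg25C, Drsl4 and Drsl5 among the higher ones.

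**Figure D5:**
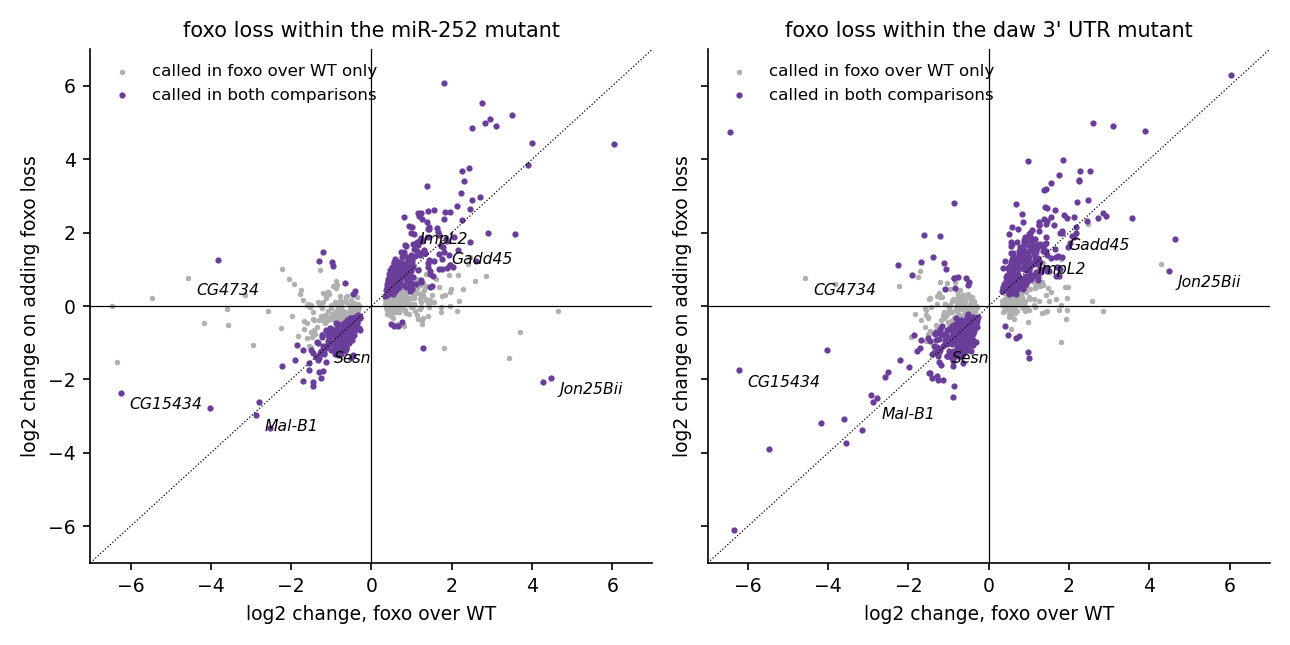
Log2 change of the genes called in foxo over WT (horizontal axis) against their log2 change on foxo loss within the miR-252 mutant (left) and the daw 3' UTR mutant (right). Purple points were called in both comparisons and the dotted line marks equal change; most points share a direction, while Jon25Bii and CG4734 are among those that do not within the miR-252 mutant.

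The size of the foxo effect was tested against the miR-252 background with an interaction term. It differed for 175 genes (2.09%): the effect was more positive in the WT background for 76 (0.909%) and more negative for 99 (1.18%). Without miR-252 replicate 1 the count was 113. Of the 175, 95 were changed in foxo against WT, 9.62% of those calls. In 15 of them the effect was called in opposite directions. Jon25Bii rose with foxo loss in the WT background and fell within the miR-252 mutant, from 430.4, 1101 and 439 to 155, 186 and 124 normalised reads (log2 change -1.95, adjusted p = 0.00475; interaction adjusted p = 4.26e-06). Cyp4p2 fell in WT and rose within the miR-252 mutant (1.26, adjusted p = 0.00887). The rise of ImpL2 was larger within the miR-252 mutant, at 2.15 against 1.00 (interaction adjusted p = 0.00295). Act79B and Act87E, which rose with foxo loss in WT, gave -0.16 and -0.48 within the miR-252 mutant, and both interactions passed the test (adjusted p = 0.00625 and 2.13e-04).

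Changed genes were spread over the chromosome arms, and their share within 0.5 Mb of foxo was not above that of all genes. By arm, 12.03% of tested genes were called on 2L, 11.4% on 2R, 11.7% on 3L, 13.2% on 3R, where foxo lies, 10.4% on X and 6.76% on 4. Within 0.5 Mb of foxo, 6 of 59 tested genes (10.2%) were called, beside 11.8% of all genes. They were Cyp6d5, Adgf-D and CG3321 (now ATPsynE), which fell, and Cht5, Dip-B and CG33109, which rose. Cht5, a chitinase gene 0.289 Mb from foxo, had 11.6, 13.97 and 17.7 normalised reads in WT and 33.2, 36.8 and 35.6 in foxo muscle (log2 change 1.25, SE 0.24, adjusted p = 0.00182). Farther along the arm, the share called was 13.56% at 0.5 to 1 Mb from foxo, 13.02% at 1 to 2 Mb and 14.18% at 2 to 4 Mb. It was 11.52% at 4 to 8 Mb and 13.98% at 8 to 20 Mb. Changes of at least 2-fold made up 5.32% at 2 to 4 Mb, against 3.37% of all genes. The part of linked line background was not tested.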

How the data were processed

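Muscle RNA libraries were made from polyadenylated RNA, per the labels' protocols. The submitters' processing notes name STAR, HTSeq, DESeq and dm6 and give no version. Strand use in counting was not stated, so overlapping and antisense reads cannot be told apart. The signal in the deposited tables is a normalised read count, which the authors divided by a size factor per library within each table. The authors' comparison tables give log2 fold changes with errors, a Wald score, and p-values with adjusted p-values. Dividing each value by that of 1 read gave whole reads for 100% of values (within 0.01). Of 10258 symbols, 8241 matched a current symbol, 1631 another deposited table and 358 a RefSeq synonym; 28 did not match.

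limma 3.58.1 (R 4.3.3) was fitted with a trend to log2(value + 1) for genes with a table mean of at least 10. The fit held 15 libraries of 5 groups, and 12 libraries of 4 groups for the daw 3' UTR table, with no block. Fold changes understate changes of low genes. Alternatives were edgeR 4.0.16, DESeq2 1.42.0, other scaling, filters, pseudocounts and fits without 1 library. WT columns are linked to the group, not to single samples. Scripts were tested on simulated data.

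Members and the 36 gene lists were chosen with earlier results of these data known. Genes named were the study's own, members of the insulin, FoxO target and activin lists, up to 6 called members by adjusted p of lists with at least 3, the 15 (of CG numbers 5) largest non-overlapping changes each way with a mean of at least 50, genes at 0 in a group, and called genes near foxo; which of these are printed was chosen with values in view.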

Additional observations from a re-analysis of the deposited data

Results flagged for a closer look

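The size of the foxo effect differed between the WT and the miR-252 background, by limma's interaction term, for 175 genes. Log2 differences below are the effect in the WT background minus that within the miR-252 mutant, and no explanation was tested.

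Many of the widest differences were in genes whose mean in the miR-252 mutant lay far from that of WT. These were CG32581 (-6.46), CG11893 (-5.70), CG4734 (-5.32), CG3397 (-4.81), CG15434 (-3.86) and Ubi-p5E (-1.64) among genes that fell in foxo against WT, and Jon25Bii (6.43), Jon25Bi (6.36) and smp-30 (2.27) among those that rose. smp-30 had a mean of 69.6 normalised reads in WT, 306 in foxo, 305 in miR-252 and 279 in miR-252 foxo muscle. htl (-1.29), CG18179 (1.79), yip7 (1.37) and Cht5 (1.73) also had a smaller effect, or none called, within the miR-252 mutant.

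Detoxification genes differed in Cyp4p2 (-5.09), GstE5 (-2.79), Cyp6a17 (-2.52) and Cyp4s3 (2.03). Immune and stress genes differed in TotM (-2.55), Drsl4 (-1.61) and CG5778 (-1.34). Muscle actins differed in Act87E (0.97) and Act79B (0.76). Metabolic genes differed in Sodh-2 (1.33), yip2 (-1.03), Hex-C (0.76) and bmm (0.70), and signalling genes in ImpL2 (-1.15) and Dad (0.76). bmm and Dad were not called in foxo against WT, and bmm fell within the miR-252 mutant (-0.67, adjusted p = 7.40e-04).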

How the results depend on the processing

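For genes called, foxo vs WT, no alternative reversed a named gene. The count of 988 was 990 with a pseudocount of 8, 995 with no filter, 1006 at a common upper quartile, 958 by edgeR, 951 by DESeq2, 1308 with only the groups of the contrast, 1136 with the replicate block and 282 with a 2-fold minimum; 977, 929, 894 and 984 calls were shared for pseudocount, edgeR, DESeq2 and block. Without 1 library it ran from 608 to 834. For genes called, foxo loss within the miR-252 mutant, it ran from 959 (without miR-252 replicate 3) to 1695, with 961 without miR-252 foxo replicate 3, and for genes called, difference of the foxo effect between WT and miR-252 backgrounds, from 113 (without miR-252 replicate 1) to 176. For genes called, foxo loss within the daw 3' UTR mutant, it ran from 1817 to 2607. The foxo gene log2 change, foxo vs WT, lost its call without any 1 library, at 0.30 to 0.41. The causes were not tested. Of 154 named genes, the pseudocount changed no call, the upper quartile 2, DESeq2 5, edgeR 8, no filter 6, the groups of the contrast 5 and the block 3; S6k, Drs and Dad became called under some. Leaving out 1 library lost a call in 157 gene and fit pairs and changed none in 766. The labels do not say whether the numbers pair libraries, and the WT titles are numbered otherwise. Deviations from the group mean correlated weakly between same-numbered foxo and WT columns, at 0.17, 0.12 and 0.09. The main fit used no block. The promoter motif was not run, as no sequence was used here. Depth limits genes of few reads, where folds are understated.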
